A study of Mus musculus with 6 samples.

Results

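Ins1, Ins2, Iapp, Gcg and Ucn3 are 5 genes for peptide hormones of the pancreatic islet, taken by gene symbol from count tables of 23284 symbols. All 5 had enough reads to be tested, among 13039 genes that passed the low-count filter. RNA was sequenced from MIN6 cells, a line from a mouse insulinoma that serves as a model of the insulin-secreting beta cell. The tumour arose in a transgenic mouse that carried the SV40 T antigen gene under an insulin promoter, and MIN6 is a transformed, dividing line, unlike the beta cells of an adult islet. The cells of 3 libraries had been given a control antisense oligonucleotide (control KD). The other 3 had been given one against Paupar (Paupar KD), a long noncoding RNA made beside Pax6, the gene of a transcription factor that binds the promoters of insulin and glucagon genes. No other treatment, dose or time is named in the labels. Values of a group that are listed by library follow the order of replicates 1, 2 and 3. The comparison asks whether the RNA of the hormone genes differed between these groups.

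The beta cell makes insulin as a single-chain precursor that is folded with disulfide bonds in the endoplasmic reticulum, cut by prohormone convertases and stored in granules. The mouse has a pair of insulin genes: Ins2 is the ancestral gene, and Ins1 is a copy made through an RNA intermediate. Amylin, encoded by Iapp, is packed in the same granules as insulin, urocortin 3, encoded by Ucn3, is a hormone of mature mouse beta cells that stimulates somatostatin release from delta cells, and proglucagon, encoded by Gcg, is the precursor of the alpha cell hormone glucagon.

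The coding sequences of Ins1 and Ins2 are close to each other, which bears on how reads are divided between them. In the GENCODE M1 annotation of NCBIM37, the assembly called mm9, Ins1 lies on the plus strand at chr19:52338813-52339946 and Ins2 on the minus strand at chr7:149864561-149885415. Their coding sequences hold 327 bases and 333 bases. Of the aligned positions 302 were identical, 25 were mismatched and 6 fell in a single gap in Ins1, so that 90.7% were identical. The longest run without a difference had 56 bases and lay near the end of both coding sequences, at chr19:52339384-52339439 in Ins1 and chr7:149864619-149864674 in Ins2. It is shown first, because reads that lie inside it cannot be told apart. The stretch around the gap, where the genes differ most clearly, is shown after it for Ins1 (chr19:52339283-52339372) and Ins2 (chr7:149864686-149865269, across an intron), with the differing letters in capitals.
Shared run: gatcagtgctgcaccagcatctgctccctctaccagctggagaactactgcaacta
Ins1: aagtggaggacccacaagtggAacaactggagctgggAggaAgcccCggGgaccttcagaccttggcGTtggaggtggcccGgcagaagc
Ins2: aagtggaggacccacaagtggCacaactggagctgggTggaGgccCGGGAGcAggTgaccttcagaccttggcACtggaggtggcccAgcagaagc

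The share of the coding sequence that cannot be assigned depends on the read length, which is not given in the sources used here. Of the 292 windows of 36 bases in the Ins1 coding sequence, 35 (12.0%) were also present letter for letter in an Ins2 transcript. With windows of 50 bases this held for 7 of 278 (2.52%), and with windows of 100 bases for 0 of 228. The sum of both insulin genes is therefore reported beside each gene. The other hormone genes lie apart from these. Gcg is on the minus strand at chr2:62312587-62321707, and Ucn3 is on the minus strand at chr13:3939934-3944595. Iapp is on the plus strand at chr6:142246943-142252481, inside the oppositely transcribed Slco1a5 (chr6:142182748-142271501), with 0 exon bases shared. In CPM, the counts of a gene scaled to a common library total, Slco1a5 was read at 5.88 to 8.15 CPM in control KD and 7.90 to 9.83 CPM in Paupar KD.

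Promoters of Ins1 and Gcg are shown because, among the 5 hormone genes, the profile of Ins1 lay nearest to that of Gcg. The distance between these profiles over the 6 libraries, described further on, was 0.29. Genes outside the hormone set lay nearer, such as Tubb3 at 0.07 from Ins1 and Rnf112 at 0.12 from Gcg. Shared regulation was not tested. The promoters are the 250 bases before the start of each gene as RefSeq gives it on GRCm38.p6. Their positions are chr19:52264047-52264296 (plus strand) for Ins1 and chr2:62483654-62483903 (minus strand) for Gcg. A promoter of this source was found for 4 of the 5 genes, all except Ins2. Capitals mark GCCATCTG, the E box letters that NeuroD1 and its partner bind in insulin promoters, and TAAT, the core of the A boxes that PDX1 binds, searched on both strands.
Ins1: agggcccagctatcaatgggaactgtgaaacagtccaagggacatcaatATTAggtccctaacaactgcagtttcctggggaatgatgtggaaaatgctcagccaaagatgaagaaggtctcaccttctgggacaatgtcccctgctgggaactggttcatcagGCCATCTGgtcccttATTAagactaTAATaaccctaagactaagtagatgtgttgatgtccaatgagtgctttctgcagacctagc
Gcg: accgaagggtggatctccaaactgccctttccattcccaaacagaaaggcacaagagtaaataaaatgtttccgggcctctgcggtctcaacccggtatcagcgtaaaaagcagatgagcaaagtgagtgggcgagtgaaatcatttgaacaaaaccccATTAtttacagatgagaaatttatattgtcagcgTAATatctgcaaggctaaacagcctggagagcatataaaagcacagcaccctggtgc

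The Ins1 promoter held 1 match to GCCATCTG, and those of Iapp, Gcg and Ucn3 held 0. Of 32851 promoters of the same length in the same source, 1.11% held it. Matches to TAAT numbered 3 in Ins1, 5 in Iapp, of which 2 overlapped, 2 in Gcg and 2 in Ucn3. This short word was present in 54.9% of all promoters. A match describes letters only; binding was not measured in these libraries.

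The libraries held 16973622 to 28693863 counts, and gene levels varied more within Paupar KD than within control KD, with a biological coefficient of variation of 18.7% against 4.97%. Paupar KD replicate 1 stood apart, with a correlation across genes (log2 CPM) of 0.975 to 0.976 to the control libraries, against 0.988 to 0.989 for the other Paupar KD libraries. Fold changes of the hormone genes are therefore given with and without it. Paupar itself matched no symbol in the tables, so the extent of its knockdown is not known here. Of the fixed markers, 14 of 14 beta cell genes passed the low-count filter, as did 13039 of all 23284 symbols. Passing this filter does not by itself identify a cell type. The summed level of these markers was 36733 to 40864 CPM in control KD and 41560 to 59791 CPM in Paupar KD. That sum contains Ins1, Ins2, Iapp and Ucn3 themselves. The other 10 beta cell markers summed to 8135 to 8367 CPM in control KD and to 7539 to 8075 CPM in Paupar KD, so that without the hormone genes all Paupar KD libraries lay below the controls. At an unadjusted p under 0.05, edgeR had 0 of these 10 higher and 3 lower. Over all tested genes it placed 9.63% higher and 8.11% lower in Paupar KD. Among alpha cell markers 7 of 11 were tested, and Pou3f4, one of the defining markers, had 0 counts in every library. Their summed level, which contains Gcg, was 1521 to 1556 CPM in control KD and 1363 to 1669 CPM in Paupar KD. Delta cell markers summed to 8.17 to 14.0 CPM over all libraries, and pancreatic polypeptide (PP) and epsilon cell markers to 0.593 to 2.83 CPM. The acinar and duct markers summed to 288 to 295 CPM in control KD and to 315 to 392 CPM in Paupar KD, with 4 of 13 tested and 6 at 0 in every library. Markers of mesenchymal, endothelial and immune cells summed to 2.49 to 4.05 CPM. The part of the acinar and duct difference in the hormone values was not tested.

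The hormone genes spanned the range from the most abundant RNA of these cells to a rare one. Ins2 ranked 1 of 13039 genes by mean CPM in both groups. Iapp ranked 4 in control KD and 3 in Paupar KD, and Ins1 ranked 6 and 5. Gcg ranked 3814 and 3532, in the upper part of the list, whereas Ucn3 ranked 11223 and 11590. The 5 genes together took 3.15%, 3.24% and 2.84% of all counts in control KD and 5.18%, 3.43% and 3.42% in Paupar KD. The insulin genes alone took 2.28%, 2.38% and 2.04% in control KD and 4.27%, 2.52% and 2.38% in Paupar KD. Paupar KD replicate 1 gave the highest of these shares.

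**Figure D1:**
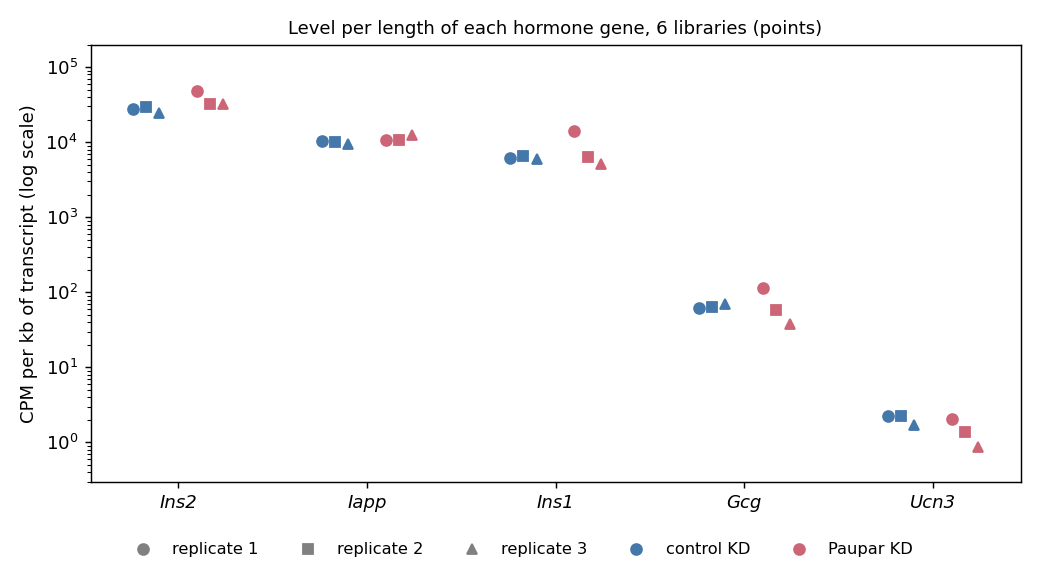
Level of each hormone gene in CPM per kilobase of its longest transcript (logarithmic y axis), with genes on the x axis, 3 control KD and 3 Paupar KD libraries as points and the replicate as the symbol. Ins2 lies at the top and Ucn3 at the bottom, and the points of Ins1 reach those of Iapp only in Paupar KD.

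Levels of different genes were compared per kilobase of the longest annotated transcript, since longer RNAs give more reads. On that scale control KD cells held Ins2 at 27435 ± 2438, Iapp at 9984 ± 432, Ins1 at 6240.2 ± 367, Gcg at 65.3 ± 4.44 and Ucn3 at 2.07 ± 0.303 CPM per kilobase (SD, n = 3). Each of these neighbours in the order lay apart in all 3 control libraries. The order was the same with the coding length (48033, 29705, 19389, 131 and 6.19 CPM per kilobase) and with the union of exons (19747, 8600.3, 6240.2, 47.6 and 2.07). The longest annotated transcripts had 583 bases for Ins2, 839 for Iapp and 1016 for Ins1. Transcript ends in these cells were not measured, so the order of Iapp and Ins1 per kilobase holds for the annotated lengths only. In Paupar KD the means were 37591 ± 9707 for Ins2, 11238 ± 987 for Iapp, 8536 ± 4849 for Ins1, 70.2 ± 39.5 for Gcg and 1.43 ± 0.583 for Ucn3 (SD, n = 3). Iapp and Ins1 overlapped there: in Paupar KD replicate 1, Ins1 stood at 14093 and Iapp at 10661 CPM per kilobase, whereas Ins1 was below Iapp in the other Paupar KD libraries.

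**Figure D2:**
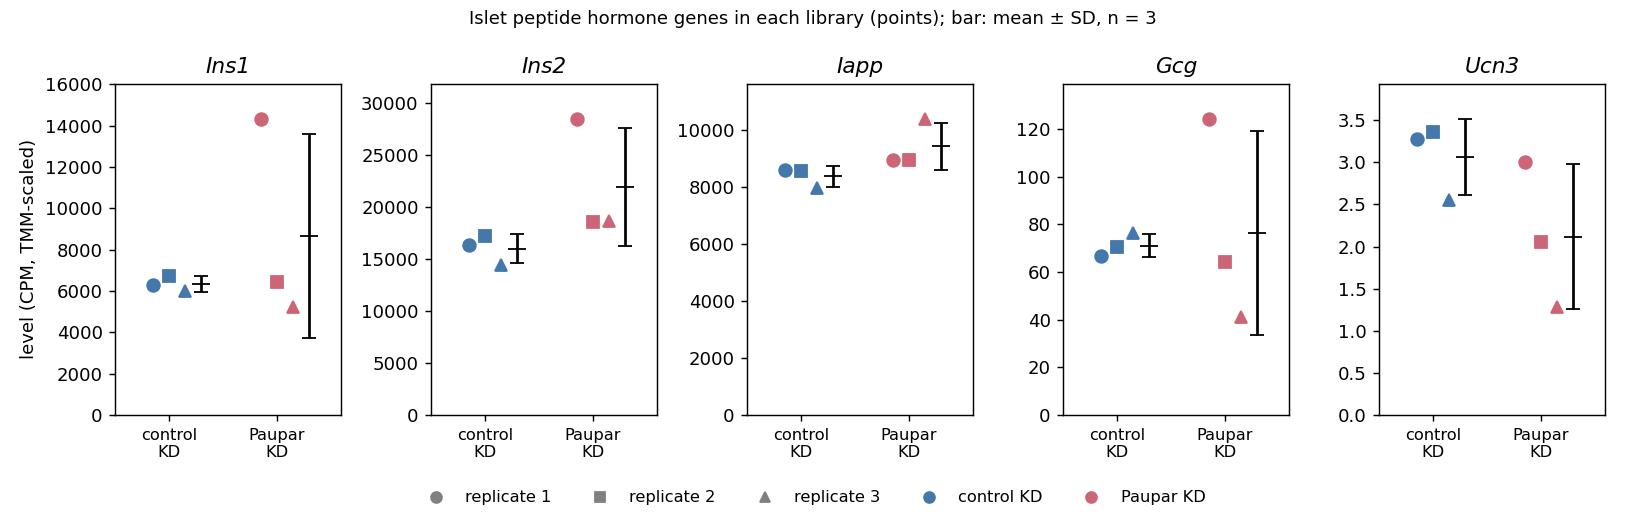
Level of each hormone gene (y axis, CPM scaled with the trimmed mean of M values) in each of 3 control KD and 3 Paupar KD libraries (x axis), with symbols for the replicate and black bars for the mean ± SD. The 3 Paupar KD points of Ins2 and of Iapp lie above all control points, whereas those of Ins1, Gcg and Ucn3 overlap the controls.

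None of the 5 hormone genes passed the edgeR test over all genes (adjusted p under 0.05), in which 0.0460% of the genes were called, 6 of 13039. At an unadjusted p under 0.05 only Ins2 passed, 1 gene of 5, where edgeR placed 9.63% of all genes higher and 8.11% lower in Paupar KD. DESeq2, which called 3.90% of the genes, also called 0 of the 5. With limma-voom, with limma-voom using sample quality weights and without Paupar KD replicate 1, where edgeR called 1.91% of the genes, the count was 0 as well. The 3 Paupar KD libraries all lay above the 3 controls for Ins2 and Iapp, 2 genes of 5, where 13.7% of all genes did so, and all below for 0 of 5, where 13.3% did. In bulk RNA, fewer cells that express a gene and less RNA per cell cannot be told apart. Whether each replicate was a culture of its own is not said in the labels, so the spread that p-values rest on may be technical.

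Ins2 was at 16348, 17207 and 14430.1 CPM in control KD and at 28449.8, 18601 and 18696 CPM in Paupar KD. All Paupar KD libraries lay above all controls, replicate 1 by far the most. The means were 15995 ± 1422 and 21916 ± 5659 CPM (SD, n = 3 per group), a ratio of 1.37 and a log2 fold change of 0.45 ± 0.18 (SE), which did not pass (edgeR adjusted p = 0.253, with 0.0840 to 0.598 over the alternatives). With Paupar KD replicate 1 left out, the log2 fold change was 0.22 ± 0.08 (edgeR adjusted p = 0.194), and without Paupar KD replicate 3 it was 0.56 ± 0.18 (edgeR adjusted p = 0.0840).

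Ins1 was at 6298.2, 6732 and 5989.6 CPM in control KD and at 14318, 6461 and 5239 CPM in Paupar KD. Paupar KD replicate 1 was above every control, replicate 2 was among them and replicate 3 was below them. The means were 6340.1 ± 373 and 8673 ± 4927 CPM (SD, n = 3 per group), again a ratio of 1.37, with a log2 fold change of 0.45 ± 0.33 (SE; edgeR adjusted p = 0.490, with 0.126 to 0.743 over the alternatives). The positive sign rested on 1 library, since with Paupar KD replicate 1 left out it was -0.12 ± 0.10 (edgeR adjusted p = 0.515). Leaving out replicate 3 instead gave 0.71 ± 0.28 (edgeR adjusted p = 0.126). The coefficient of variation of Ins1 was 5.89% in control KD and 56.8% in Paupar KD, against 8.89% and 25.8% for Ins2.

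The sum of both insulin genes, which does not depend on how shared reads were divided, was 22646, 23939 and 20420 CPM in control KD and 42768, 25063 and 23935 CPM in Paupar KD. Paupar KD replicate 1 stood far above the rest, and replicate 3 lay among the controls. The means were 22335 ± 1780 and 30588.5 ± 10563 CPM (SD, n = 3 per group), with a log2 fold change of 0.45 ± 0.22 (SE; edgeR adjusted p = 0.311, with 0.0938 to 0.636 over the alternatives). Without Paupar KD replicate 1 it was 0.13 (edgeR adjusted p = 0.386). Whether the counting left out shared reads is not known here, and the sum would not hold such reads.

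The balance between the insulin genes was close to constant in the controls and not in Paupar KD. Ins2 took 72.2%, 71.9% and 70.7% of the insulin reads in control KD and 66.5%, 74.2% and 78.1% in Paupar KD. The 95% Wilson intervals, which cover counting error only, reached 0.109 to 0.123 percentage points to either side of each share. Replicate 1 lay below all controls and replicates 2 and 3 above them. The group means, 71.6% ± 0.804 and 72.95% ± 5.90 (SD, n = 3 per group), differed by 1.37 percentage points, less than the spread in Paupar KD (exact permutation test, two-sided p = 0.7, where 0.1 is the smallest p that 3 against 3 allows). The difference was 4.59 points without Paupar KD replicate 1 and -1.21 points without Paupar KD replicate 3.

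**Figure D3:**
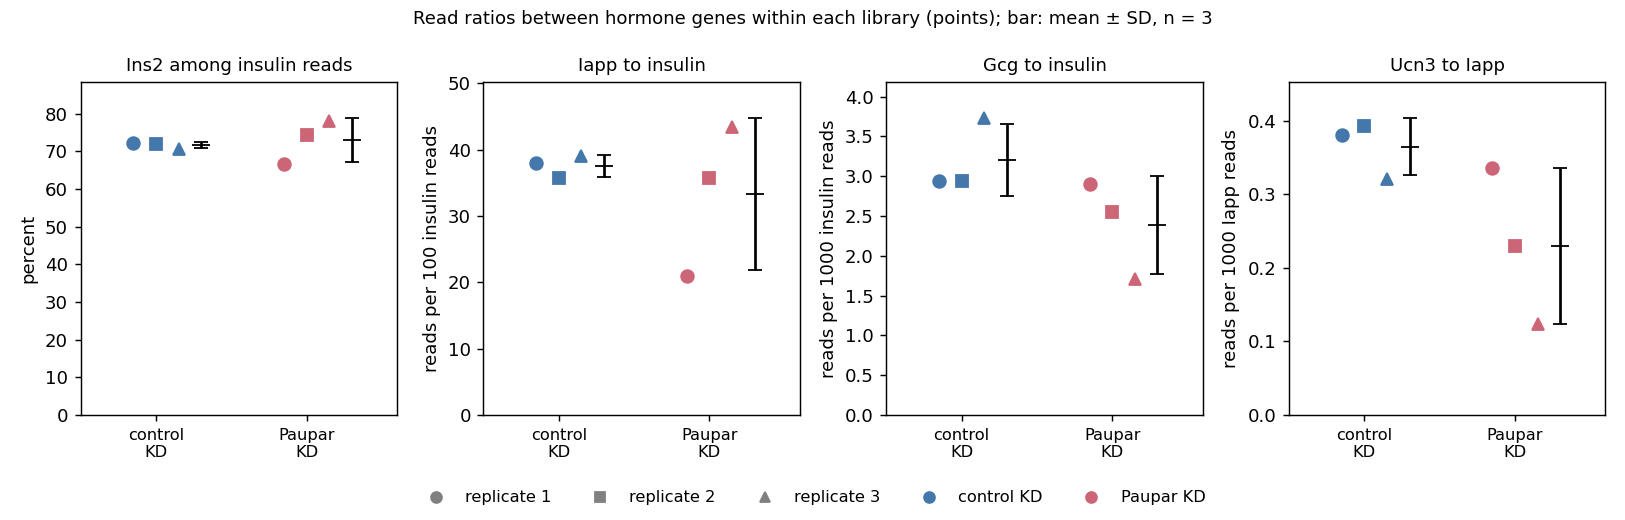
Read ratios within each library (y axes: percent of insulin reads counted for Ins2, Iapp reads per 100 insulin reads, Gcg reads per 1000 insulin reads and Ucn3 reads per 1000 Iapp reads) for 3 control KD and 3 Paupar KD libraries, with the mean ± SD as black bars. The share of Ins2 stays within 70.7% to 72.2% in the controls and spreads from 66.5% to 78.1% in Paupar KD.

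Iapp was the steadiest of the 5. It was at 8616, 8555 and 7960 CPM in control KD and at 8945, 8956 and 10385 CPM in Paupar KD. The groups did not overlap, and the highest value was in Paupar KD replicate 3, not in replicate 1. The means were 8377 ± 362 and 9428 ± 828 CPM (SD, n = 3 per group), a ratio of 1.13 and a log2 fold change of 0.17 ± 0.10 (SE), which did not pass (edgeR adjusted p = 0.394, with 0.211 to 0.720 over the alternatives). With Paupar KD replicate 1 left out, the log2 fold change was 0.20 ± 0.08 (edgeR adjusted p = 0.211). Leaving out Paupar KD replicate 3, the highest library, gave 0.095 ± 0.10 (edgeR adjusted p = 0.541).

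Amylin and insulin RNA therefore stood in different proportions in different Paupar KD libraries. Per 100 insulin reads there were 38.0, 35.7 and 39.0 Iapp reads in control KD and 20.9, 35.7 and 43.4 in Paupar KD. The lowest and the highest ratio were both in Paupar KD, and the means were 37.6 ± 1.67 and 33.3 ± 11.4 (SD, n = 3 per group). The direction rested on Paupar KD replicate 1, since the mean of the remaining 2 libraries was 39.6. The ratios between hormone genes were chosen after the values were seen and were not tested, except for the share of Ins2.

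Ucn3 was the scarcest hormone RNA. The files held 74, 79 and 73 Ucn3 reads in control KD and 51, 42 and 30 in Paupar KD. In CPM these were 3.28, 3.36 and 2.55 in control KD and 3.01, 2.05 and 1.29 in Paupar KD. Paupar KD replicates 2 and 3 were below every control, and replicate 1 was among the controls. Counting error is part of this spread: the exact 95% Poisson interval was 2.66 to 4.19 CPM for the highest control and 0.869 to 1.84 CPM for the lowest Paupar KD library. The means were 3.06 ± 0.448 and 2.12 ± 0.862 CPM (SD, n = 3 per group), a ratio of 0.691 and a log2 fold change of -0.55 ± 0.30 (SE), which did not pass (edgeR adjusted p = 0.363, with 0.106 to 0.672 over the alternatives). Without Paupar KD replicate 1 it was -0.88 ± 0.26 (edgeR adjusted p = 0.118), and without Paupar KD replicate 3, the lowest library, it was -0.28 ± 0.24 (edgeR adjusted p = 0.452).

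Ucn3 and Iapp, both known from mature beta cells, thus had opposite signs, and neither difference passed. Per 1000 Iapp reads there were 0.380, 0.393 and 0.320 Ucn3 reads in control KD and 0.336, 0.229 and 0.124 in Paupar KD. Only Paupar KD replicate 1 lay within the range of the controls. Of the receptors of these hormones, Crhr2, the urocortin 3 receptor, had at most 7 counts in any library, and Calcr, the core of the amylin receptor, at most 4.

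Gcg, the alpha cell hormone gene, was read at a moderate level in this beta cell line. It had 1503, 1653 and 2182 counts in control KD and 2105, 1309 and 954 counts in Paupar KD. In CPM these were 66.6, 70.4 and 76.2 in control KD and 124, 64.0 and 40.9 in Paupar KD. Replicate 1 was above every control, and replicates 2 and 3 were below every control. The means were 71.1 ± 4.83 and 76.4 ± 43.0 CPM (SD, n = 3 per group), with a log2 fold change of 0.10 ± 0.34 (SE; edgeR adjusted p = 0.899, with 0.219 to 0.963 over the alternatives). With Paupar KD replicate 1 left out, the log2 fold change was -0.45 ± 0.17 (edgeR adjusted p = 0.219), and without Paupar KD replicate 3 it was 0.40 ± 0.23 (edgeR adjusted p = 0.270).

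Set against insulin in the same library, Gcg varied less within Paupar KD and more within control KD than in CPM. Per 1000 insulin reads there were 2.94, 2.94 and 3.73 Gcg reads in control KD and 2.90, 2.55 and 1.71 in Paupar KD, with means of 3.20 ± 0.456 and 2.39 ± 0.613 (SD, n = 3 per group). All 3 Paupar KD ratios lay below the controls, replicate 1 by a small margin, and the mean without that library was 2.13. The hormone genes of the remaining islet cells were at or near the limit of detection. Sst, the somatostatin gene of delta cells, had 3 counts in control KD replicate 1 and 0 in every other library. Ppy, the pancreatic polypeptide gene, had 7, 5 and 8 counts in control KD and 42, 4 and 13 in Paupar KD, too few to be tested; its highest value was in the same library as that of Gcg.

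**Figure D4:**
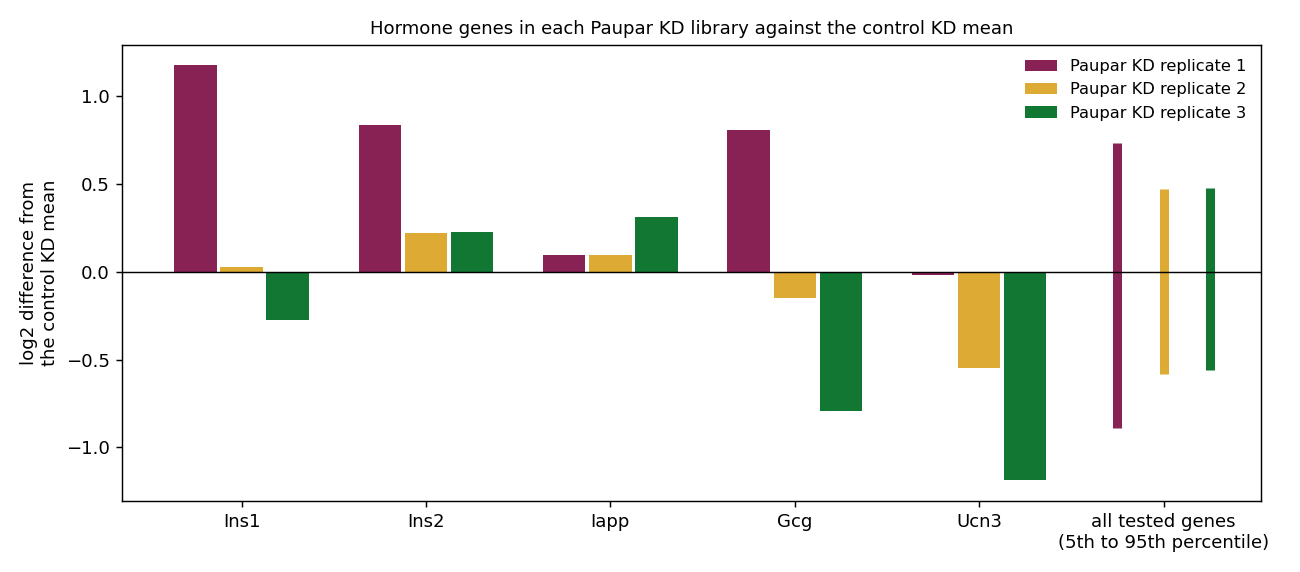
Log2 difference of each hormone gene from the mean of the controls (y axis) in Paupar KD replicates 1, 2 and 3 (bars), beside the 5th to 95th percentile range of all tested genes in the same library (thick lines). Ins1 and Gcg are high in replicate 1 and low in replicate 3, whereas Ucn3 is close to 0 in replicate 1 and lowest in replicate 3.

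The Paupar KD libraries differed from each other in which hormone genes were displaced from the control mean. In Paupar KD replicate 1 the log2 differences were 1.18 for Ins1, 0.83 for Ins2, 0.81 for Gcg, 0.10 for Iapp and -0.02 for Ucn3. A difference at least as large as that of Ins1 was seen for 3.45% of the tested genes in that library, and one as large as that of Iapp for 82.7%. In Paupar KD replicate 2 they were 0.03 for Ins1, 0.22 for Ins2, -0.15 for Gcg, 0.10 for Iapp and -0.55 for Ucn3. The largest of these was that of Ucn3, which rested on 42 counts, and 9.15% of the genes were displaced as far. In Paupar KD replicate 3 they were -0.27 for Ins1, 0.23 for Ins2, -0.79 for Gcg, 0.31 for Iapp and -1.19 for Ucn3. As large a difference as that of Gcg was seen for 3.90% of the genes in this library, and as large as that of Ucn3 for 1.09%.

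The spread across Paupar KD libraries was thus wide for Ins1, Gcg and Ucn3 and ordinary for Ins2 and Iapp. The SD of log2 CPM over the 3 Paupar KD libraries was 0.80 for Gcg, 0.77 for Ins1 and 0.59 for Ucn3, against a median of 0.20 over all tested genes. An SD at least that large was seen for 2.54%, 2.97% and 7.03% of the genes. These genes were not matched for level, and the SD of Ucn3 rested on 30 to 51 counts and holds counting error. In control KD the SD was already 0.21 for Ucn3, against 0.10 for Gcg, 0.08 for Ins1 and a median of 0.08 over all tested genes. Ins2 had an SD of 0.35, reached by 22.6% of the genes, and Iapp one of 0.12, reached by 74.1%.

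The hormone genes were compared by the root mean square difference of their log2 profiles over 6 libraries, centred on the control mean. Among them, Ins1 was closest to Ins2 (0.26) and Gcg was closest to Ins1 (0.29). Ins2 and Iapp differed by 0.31, and the pair farthest apart was Ins2 and Ucn3, at 0.75. These distances are descriptions over 6 libraries, and within each library all genes share its depth and scaling. Paupar KD replicate 1 weighs heavily in the distances.

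Among 10678 genes with a mean of at least 5 CPM, the 3 genes with profiles most like each hormone gene were found by the same distance. For Ins1 they were Tubb3 (0.07), which encodes a neuronal beta-tubulin, Tnfsf10 (0.11) and Coro1a (0.12). For Ins2 they were Erh (0.04), Lsmd1 (0.05) and H2afv (0.05), and for Iapp 2810453I06Rik (0.03), Znrf2 (0.04) and Fbxo9 (0.04). For Gcg they included Rnf112 (0.12) and Tle2 (0.12). For Ucn3 they were Gsdmd (0.12), the Notch ligand gene Dll1 (0.13) and Mlxipl (0.15), which encodes the glucose-responsive transcription factor ChREBP. The log2 differences from the control mean in Paupar KD were 1.10, -0.07 and -0.22 for Tubb3 and -0.01, -0.50 and -1.22 for Mlxipl.

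**Figure D5:**
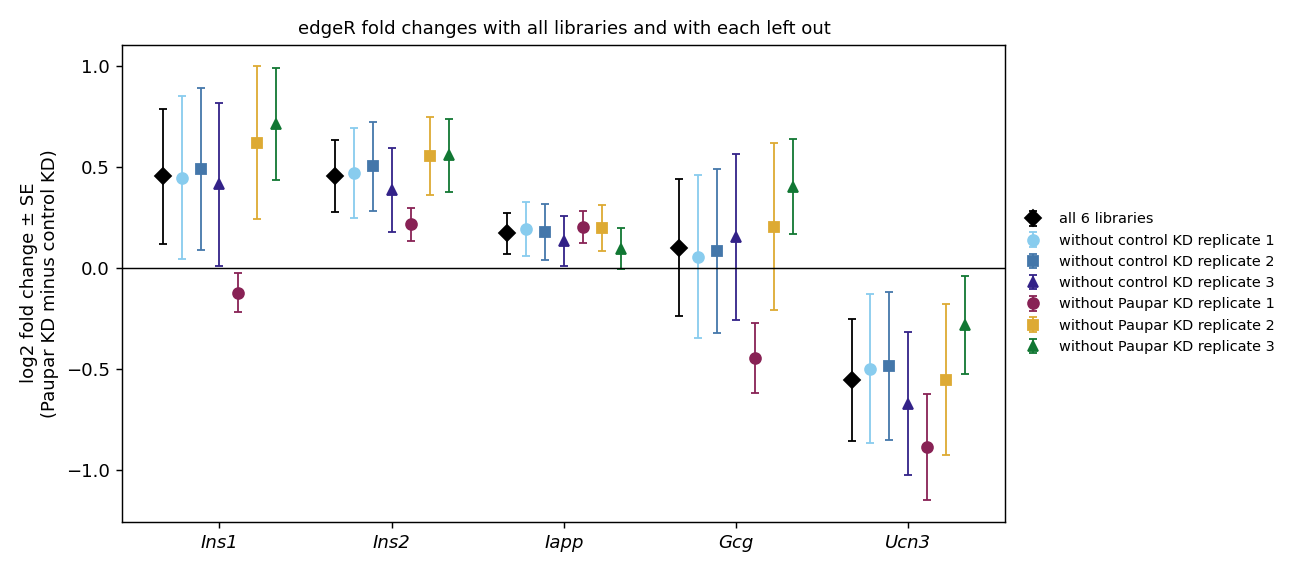
Log2 fold change of each hormone gene from edgeR (y axis, Paupar KD minus control KD, bars for the SE) with all 6 libraries and with each library left out in turn. Ins1 and Gcg cross 0 without Paupar KD replicate 1, whereas Ins2 and Iapp stay above 0 and Ucn3 below it in all 7 fits.

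The genes that act on the hormone precursors were described by lists, none of which had a member called by edgeR with all 6 libraries and the low-count filter. Calls made by edgeR under other settings are given with each list, with the share of all genes called in brackets at the first mention. The counts in every list are to be read beside the shares of all tested genes. At an unadjusted p under 0.05 edgeR placed 9.63% higher and 8.11% lower, and DESeq2 called 3.90%. Groups did not overlap for 13.7% with Paupar KD above and for 13.3% with Paupar KD below. Prohormone processing and folding enzymes had 16 of 17 entries tested, with 14 positive and 2 negative log2 fold changes and a median of 0.17, against 0.01 over all genes. At a p under 0.05 before adjustment, edgeR had 6 higher and 1 lower, and DESeq2 called 1 in each direction, Dnajc3 and Ero1lb. Dnajc3, which encodes a cochaperone of the endoplasmic reticulum, was at 198 ± 6.01 CPM in control KD and 249.8 ± 13.9 in Paupar KD (SD, n = 3 per group; edgeR adjusted p = 0.144). Ero1lb, the oxidase that drives disulfide bond formation in proinsulin, was at 3842 ± 128 and 3080.2 ± 241 CPM (edgeR adjusted p = 0.179). Hspa5, which encodes the chaperone BiP, was at 2603 ± 146 and 3094 ± 221 CPM (edgeR adjusted p = 0.251). The 3 Paupar KD libraries lay above all controls for Dnajc3 and Hspa5 and below them for Ero1lb. P4hb, a protein disulfide isomerase, was at 2561 ± 99.7 and 2584 ± 293 CPM, with a sign that turned in 4 of 17 alternatives. Limma-voom with sample quality weights, which called 13.0% of all genes, called 6 higher and 2 lower in this list, and limma-voom without weights (0.0460% of all genes) called 0 in this and in every other list. With Paupar KD replicate 3 left out (10.3% of all genes), the edgeR calls were 4 higher and 0 lower, namely Dnajc3, Pcsk1, Pdia4 and Pdia6, and leaving out replicate 1 (1.91%) it called 0.

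All 11 granins and other granule proteins were tested, with 8 positive and 3 negative log2 fold changes and a median of 0.07. At a p under 0.05 before adjustment, edgeR had 2 higher and 1 lower, and DESeq2 called 0. Slc30a8, the zinc transporter that loads the insulin granule, was at 472 ± 13.0 CPM in control KD and 387 ± 35.9 in Paupar KD (SD, n = 3 per group; edgeR adjusted p = 0.211), with no overlap. Cpe, which encodes carboxypeptidase E and is in both lists, was at 2365 ± 41.0 and 2679 ± 238 CPM (edgeR adjusted p = 0.346), and did not overlap either. Chga, the chromogranin A gene, was at 9227 ± 219.5 and 9452 ± 1659 CPM, and Scg2, the secretogranin II gene, at 6775 ± 249 and 6455 ± 1827 CPM. Both overlapped between groups, and their signs turned in 2 and 1 of 17 alternatives. Leaving out Paupar KD replicate 1, edgeR called 1 lower gene in this list, Slc30a8, as did limma-voom with sample quality weights, which called 0 higher and 1 lower.

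The transcription factors known from hormone gene promoters had 22 of 27 entries tested, with 11 positive and 11 negative log2 fold changes and a median of -0.03. At a p under 0.05 before adjustment, edgeR had 2 higher and 3 lower, and DESeq2 called 0 higher and 2 lower, Pax6 and Rfx6. Pax6 was at 588, 620 and 547 CPM in control KD and 387, 417 and 389 in Paupar KD (edgeR adjusted p = 0.0694). Mafa, an activator of insulin genes that was chosen after its values were seen, was at 246, 179.8 and 207 CPM in control KD and 670.1, 259.8 and 222 in Paupar KD, so that its highest value, like those of Ins1, Ins2 and Gcg, was in Paupar KD replicate 1. Neurod1 was at 436 ± 9.19 and 373 ± 57.9 CPM (SD, n = 3 per group; edgeR adjusted p = 0.359), all Paupar KD libraries below the controls. Pdx1 was at 355 ± 29.4 and 378 ± 25.6 CPM (edgeR adjusted p = 0.643). Rfx6, required for islet endocrine cells to form, was at 99.1 ± 3.93 and 69.9 ± 5.47 CPM (edgeR adjusted p = 0.0856). When Paupar KD replicate 1 was left out, the edgeR calls in this list were 0 higher and 3 lower, Pax6 and Rfx6 among them, and leaving out replicate 3 it called these 2 genes. With no low-count filter, where 0.345% of all genes were called, it called Pax6 alone, and limma-voom with sample quality weights called 0 higher and 3 lower.

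The RNA-binding proteins of insulin messenger RNA had 9 of 10 entries tested, with 3 positive and 6 negative log2 fold changes and a median of -0.08. At a p under 0.05 before adjustment, edgeR had 1 higher and 0 lower, and DESeq2 called 0. Ptbp1, the polypyrimidine tract-binding protein that stabilises insulin messenger RNA, was at 385 ± 5.14 and 365 ± 15.3 CPM (SD, n = 3 per group; edgeR adjusted p = 0.632). Its neuronal relative Ptbp2 was at 53.7 ± 1.15 and 75.0 ± 17.7 CPM (edgeR adjusted p = 0.223). Celf1 was at 350.4 ± 0.265 and 351 ± 15.0 CPM, and Pabpc1 at 487 ± 11.0 and 461 ± 77.1 CPM. In the fit without Paupar KD replicate 3, edgeR called 1 gene as higher, Ptbp2, as did limma-voom with sample quality weights, and leaving out replicate 1 it called 0.

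Receptors of islet and gut hormones had 12 of 18 entries tested, with 5 positive and 7 negative log2 fold changes and a median of -0.01. At a p under 0.05 before adjustment, edgeR had 2 higher and 2 lower, and DESeq2 called 1 in each direction, Igf1r and Sstr3. Sstr3, a somatostatin receptor gene of beta cells, was at 107 ± 5.77 and 66.7 ± 8.03 CPM (SD, n = 3 per group; edgeR adjusted p = 0.0691), with a log2 fold change of -0.68 and no overlap. Igf1r, whose product also forms hybrids with the insulin receptor, was at 61.0 ± 6.99 and 103 ± 23.0 CPM (edgeR adjusted p = 0.133), and its groups did not overlap. Glp1r, the receptor of the proglucagon product GLP-1, was at 256 ± 20.9 and 265 ± 56.2 CPM, with a sign that turned in 3 of 17 alternatives. Leaving out Paupar KD replicate 1, and likewise leaving out replicate 3, edgeR called Igf1r as higher and Sstr3 as lower. It called Sstr3 alone with no low-count filter, and limma-voom with sample quality weights called 1 higher and 2 lower.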

How the data were processed

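The authors deposited raw read counts per gene symbol for each of 6 libraries of total RNA prepared with a TruSeq RNA kit, per the labels. The tools listed, per the submitters' processing notes, are HISAT2, HTSeq, DESeq2 and CASAVA 1.8.2, with the build mm9. For the counting, strand and annotation are not given in these sources. Library totals were 22463557, 23624880 and 28693863 counts in control KD and 16973622, 20302121 and 23434166 in Paupar KD. The test was that of edgeR 4.0.16 (R 4.3.3; filterByExpr, minimum count 10, smallest group 3; trimmed mean of M values; robust quasi-likelihood test; Benjamini-Hochberg adjusted p under 0.05 over all 13039 genes tested). CPM are scaled counts, and log2 CPM used a prior count of 2. The share of Ins2 was tested by an exact permutation test (scipy 1.17.1). Alternatives were other scaling factors, library sizes without the 5 hormone genes, other filters, DESeq2 1.42.0, limma-voom (limma 3.58.1), no robust estimation, a replicate block and leaving out each library. Sequences were aligned with Biopython 1.88. Every pair of libraries of a group differed by more than sampling noise (chi-square per gene 3.47 or more). The hormone genes and lists were chosen with earlier results of these data known. From each list the text names the tested gene with the smallest p, since none passed, and up to 3 with the highest mean CPM. Pax6, Mafa, Rfx6, Pomc, Ero1lb, Igf1r, Pcsk1, Pdia4, Pdia6, Adm, Insl5, Ppy, Sst, Crhr2, Calcr, Slco1a5, Igf2as, Krt7 and Spp1 were added after their values were seen where that rule does not name them. The scripts were tested on simulated data. The values of some genes that these rules and marker lists name are not reported here.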

Additional observations from a re-analysis of the deposited data

How the results depend on the processing

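No alternative called any of the 5 hormone genes. Ins2, Iapp, Ucn3 and the sum of the insulin genes kept their direction in all 17 alternatives. Leaving out each library in turn gave log2 fold changes of -0.12 to 0.71 for Ins1, where only the value without Paupar KD replicate 1 was negative, 0.22 to 0.56 for Ins2, 0.10 to 0.20 for Iapp, -0.45 to 0.40 for Gcg, -0.88 to -0.28 for Ucn3 and 0.13 to 0.60 for the insulin sum, and differences of -1.21 to 4.59 percentage points for the share of Ins2. Gcg turned negative with limma-voom (-0.056), limma-voom with sample quality weights (-0.16) and a replicate block (-0.044), and also when Paupar KD replicate 1 was left out. Under the replicate block the share of Ins2 still differed by 1.37 points (exact paired sign-flip permutation p = 0.75, smallest possible 0.25). Over all genes edgeR called 5 higher and 1 lower; upper-quartile factors gave 3 and 0, no low-count filter 36 and 24, a mean of at least 1 CPM 2 and 0, DESeq2 275 and 233, limma-voom with sample quality weights 745 and 950, and the replicate block 1 and 0. Leaving out 1 library gave 0 to 611 higher and 0 to 745 lower: 123 and 128 when Paupar KD replicate 1 was left out, 611 and 745 when it was Paupar KD replicate 3, and 0 when it was Paupar KD replicate 2 or any control. The cause was not tested. The replicate numbers were not shown to pair the libraries: deviations from the group means correlated at 0.072, -0.011 and 0.0061 between same-numbered libraries, and only Paupar KD replicate 1 correlated best with its own number. Depth limited Ucn3, with 30 to 79 counts per library.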

Other observations

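MIN6 cells also held RNA of peptide hormones that are not among the main products of the beta cell. Of 36 other peptide hormone and neuropeptide genes, 12 were tested, 8 had 0 counts in every library, and edgeR with all 6 libraries called 0 (5 higher and 0 lower at an unadjusted p under 0.05), DESeq2 called 2 higher, Cck and Pomc, and limma-voom called 0. Leaving out Paupar KD replicate 1, edgeR called Cck as higher, and leaving out replicate 3 it called 1 higher and 2 lower from Pomc, Adm and Insl5. Limma-voom with sample quality weights (13.0% of all genes) called 3 higher and 1 lower in this list. The median log2 fold change of the 12 tested genes was 0.11, against 0.01 over all genes. Of all tested genes, edgeR placed 9.63% higher and 8.11% lower at an unadjusted p under 0.05, and DESeq2 called 3.90%. Groups did not overlap for 13.7% of all tested genes with Paupar KD above and for 13.3% with Paupar KD below. Igf2, which encodes insulin-like growth factor 2 and lies beside Ins2 on chromosome 7 (chr7:149836673-149852721, NCBIM37), was at 9870.2 ± 184 CPM in control KD and 8762 ± 577 in Paupar KD (SD, n = 3 per group; edgeR adjusted p = 0.353), all Paupar KD libraries below the controls. Igf2as, on the opposite strand and overlapping it, was at 827, 846 and 851 CPM in control KD and 1208, 779 and 673 in Paupar KD replicates 1 to 3; without a stated strand setting their reads cannot be told apart where they overlap. Cck, the cholecystokinin gene, was at 1165 ± 117 and 1603 ± 112 CPM (SD, n = 3 per group; edgeR adjusted p = 0.133), with no overlap. Npy, the neuropeptide Y gene, was at 1238 ± 99.4 and 1349 ± 654 CPM, with a sign that turned in 2 of 17 alternatives. Pomc, the precursor gene of corticotropin, stood at 3.05 ± 0.203 CPM in control KD and at 5.65 ± 1.31 in Paupar KD (SD, n = 3 per group; edgeR adjusted p = 0.133), and the groups did not overlap.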
